A study of Homo sapiens with 12 samples.

Results

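Immune checkpoint ligands are surface or secreted proteins by which a tumor cell restrains or engages T cells, natural killer cells and macrophages. The 10 genes described here were listed by symbol, with no measured value in the rule: CD274 (PD-L1) and PDCD1LG2 (PD-L2), which bind the inhibitory T cell receptor PD-1, the B7 family members CD276 (B7-H3) and VTCN1 (B7-H4), the macrophage inhibitor CD47, the ligands PVR and NECTIN2 of the receptors TIGIT and CD226, the tumor necrosis factor family ligands CD70 and TNFSF9, and the galectin LGALS9. They are 10 of the 60605 genes counted, and every symbol matched 1 gene. Expression was measured by RNA sequencing of cultured SBC5 cells, an established line from a human small cell lung cancer. All cells received either olaparib at 1 µM, a drug that blocks the PARP enzymes of DNA break repair, or its solvent DMSO, and 2 hours later either 4 Gy of gamma radiation or none. RNA was taken after 3 days. The groups are therefore vehicle (DMSO, no radiation), olaparib (no radiation), radiation (with DMSO) and the combination, with 3 libraries in each. The labels name no cells other than this single line, so the data describe ligands in tumor cells cultured by themselves. The study set each treatment against vehicle to ask which genes it modulated. The labels do not say whether the libraries of a group came from separate cultures, so p-values measure the spread between libraries, which may be technical.

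Tumor cells display these ligands to different partners. Interferon from T cells is the best known inducer of PD-L1, and the response involves JAK kinases and the transcription factor IRF1. CD47 signals to SIRPA on macrophages and holds back phagocytosis, while CD70 and TNFSF9 bind the costimulatory receptors CD27 and TNFRSF9. DNA damage and PARP inhibition have both been studied as ways to alter PD-L1 on tumor cells.

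Library totals ran from 14300459 to 38804959 estimated counts. Olaparib 2, olaparib 3 and radiation 3 stood apart: the summed level of 404 olfactory receptor genes, whose proteins serve the sense of smell, was 920.2 to 2097.8 CPM (counts per 1000000 counts, here by library total) in those libraries and 354.7 to 501.4 in the other 9. The levels and tests below use the other 9 libraries (3 vehicle, 1 olaparib, 2 radiation and 3 combination), and the 3 are described separately. The single olaparib library was assumed to vary like the others. Of genes listed as markers of small cell lung cancer, YAP1 averaged 104 CPM and REST 233 CPM over the 9 libraries. Neuroendocrine markers were mixed. SYP averaged 21.1 CPM, whereas INSM1, CHGA, NCAM1 and DLL3 averaged below 0.5 CPM, with NCAM1 at 1.32 CPM in combination 1. The neuroendocrine transcription factor NEUROD1 averaged 1.1 CPM and ATOH1 was 0. Of 12 such markers, 9 were tested in the combination against vehicle. YAP1 (log2 change -0.41, SE 0.0783, adjusted p = 0.000147) and MYC, given below, were the 2 called lower, and 0 were called higher. Of all genes tested, 3.26% were called lower. In all 12 libraries 0 of these markers were called. When scaled by library size alone, 1 was called higher and 0 lower. Markers of leukocytes, 18 in number, summed to 3.7 to 7.84 CPM per library, with the T cell gene CD3D at 0 in all 9 and with PTPRC, CD4 and CD8A at 1 CPM or more on average.

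The members fell into 6 that were well expressed (a mean of at least 1 CPM over the 9 libraries) and 4 near zero. The well expressed members CD47, CD276, PVR, CD70, TNFSF9 and NECTIN2 had means between 7.72 and 61.3 CPM. The near-zero members CD274, PDCD1LG2, LGALS9 and VTCN1 had means between 0.0181 and 0.197 CPM. RefSeq promoter windows, here the 250 bases before the annotated start in GRCh38.p14, were found for 8 of the 10 members. The 4 printed below are those of CD47 and CD276, which fell after the combination, of TNFSF9, whose window holds a TATA motif and an interferon response motif, and of CD274, a near-zero member with interferon motifs. They read 5′ to 3′ on the gene's strand, and capitals mark matches, on either strand, to these motifs: the TATA box (TATAAA), the CCAAT box (by its letters), the GC box (GGGCGG), the interferon response motif (GAAA, then any 2 bases, then GAAA again) and the gamma activated site (TTCNNNGAA). Overlapping matches run together.
CD47 promoter, chr3:108091032-108091281, minus strand: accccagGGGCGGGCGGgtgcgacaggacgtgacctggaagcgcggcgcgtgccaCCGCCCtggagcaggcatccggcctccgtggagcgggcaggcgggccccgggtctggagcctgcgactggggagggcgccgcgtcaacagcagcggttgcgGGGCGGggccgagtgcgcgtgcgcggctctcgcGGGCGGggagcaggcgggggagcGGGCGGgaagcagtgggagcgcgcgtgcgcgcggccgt
CD276 promoter, chr15:73684133-73684382, plus strand: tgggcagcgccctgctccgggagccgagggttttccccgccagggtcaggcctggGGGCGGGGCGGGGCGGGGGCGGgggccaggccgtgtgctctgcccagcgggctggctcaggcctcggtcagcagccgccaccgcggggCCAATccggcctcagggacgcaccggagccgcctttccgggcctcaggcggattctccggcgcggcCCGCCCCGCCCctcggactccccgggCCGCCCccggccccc
TNFSF9 promoter, chr19:6530776-6531025, plus strand: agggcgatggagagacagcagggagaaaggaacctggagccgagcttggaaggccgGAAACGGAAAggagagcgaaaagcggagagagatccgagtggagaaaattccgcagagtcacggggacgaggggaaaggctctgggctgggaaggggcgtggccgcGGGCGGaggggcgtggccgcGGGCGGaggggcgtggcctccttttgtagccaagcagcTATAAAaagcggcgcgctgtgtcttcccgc
CD274 promoter, chr9:5450292-5450541, plus strand: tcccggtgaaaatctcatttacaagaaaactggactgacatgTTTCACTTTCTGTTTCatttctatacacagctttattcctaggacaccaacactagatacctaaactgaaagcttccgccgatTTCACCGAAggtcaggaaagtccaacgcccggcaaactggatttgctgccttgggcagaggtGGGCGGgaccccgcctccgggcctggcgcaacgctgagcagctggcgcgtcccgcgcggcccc
The windows of CD47 and CD276 are dense in GC boxes, with 6 matches in CD47 and 7 in CD276. A GC box occurs in 42.6% of all 35116 promoter windows of this length. The interferon response motif, present in 3.0% of windows, matched in CD274 and TNFSF9. The CD274 window carries it as a pair of overlapping matches on the opposite strand, 208 and 202 bases before the start, and also holds the gamma activated motif, which occurs in 6.6% of windows. No member window held CACGTG (E-box, 6.3% of windows). CpG dinucleotides numbered 19 to 39 in the windows of the 5 well expressed members with an entry (CD276 by its first start) and 1 to 16 in those of the 3 near-zero members. The median over all windows was 11, with quartiles of 3 and 23. These matches describe the letters of the windows and were not tested against expression.

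CD274, the ligand of PD-1 most often targeted in the clinic, was close to absent. Its estimated counts were 0, 2 and 4 in the vehicle libraries, 6 in olaparib 1, 10 and 4 in radiation 1 and 2, and 6, 8 and 3 in the combination. Every combination and radiation library was above every vehicle library in CPM, a pattern shown upward by 9.15% of tested genes in the combination and 11.7% after radiation. CD274 did not pass the test against vehicle (adjusted p = 0.753 in the combination, 0.858 after radiation). Where a library has 0 counts, a true count of up to 3 cannot be told from 0, which is 0.0788 to 0.146 CPM in these libraries. The fitted log2 change of CD274 in the combination, 1.95, had an interval of -1.63 to 5.53, so neither a rise nor a fall was resolved. PDCD1LG2, the second PD-1 ligand, was counted at 11, 0 and 0 in vehicle, 2 in olaparib 1, 0 and 0 in radiation 1 and 2, and 0, 4 and 5 in the combination. A single vehicle library held all of the vehicle counts, and the groups overlapped. VTCN1, a B7 family inhibitor of T cells, had 3 counts in vehicle 1 and 1 count in combination 2 and was 0 in the other 7 libraries, too few to be tested. LGALS9, which binds the T cell receptor HAVCR2 (TIM-3), had 9, 0 and 12 counts in vehicle, 16 in olaparib 1, 9 and 2 in radiation 1 and 2, and 4, 1 and 0 in the combination. Its reads can be shared with the near-identical copies LGALS9B and LGALS9C, so these small numbers are uncertain. No near-zero member passed edgeR's test in any comparison of these 9 libraries. The plot of counts by library shows where the higher values lie.

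**Figure D1:**
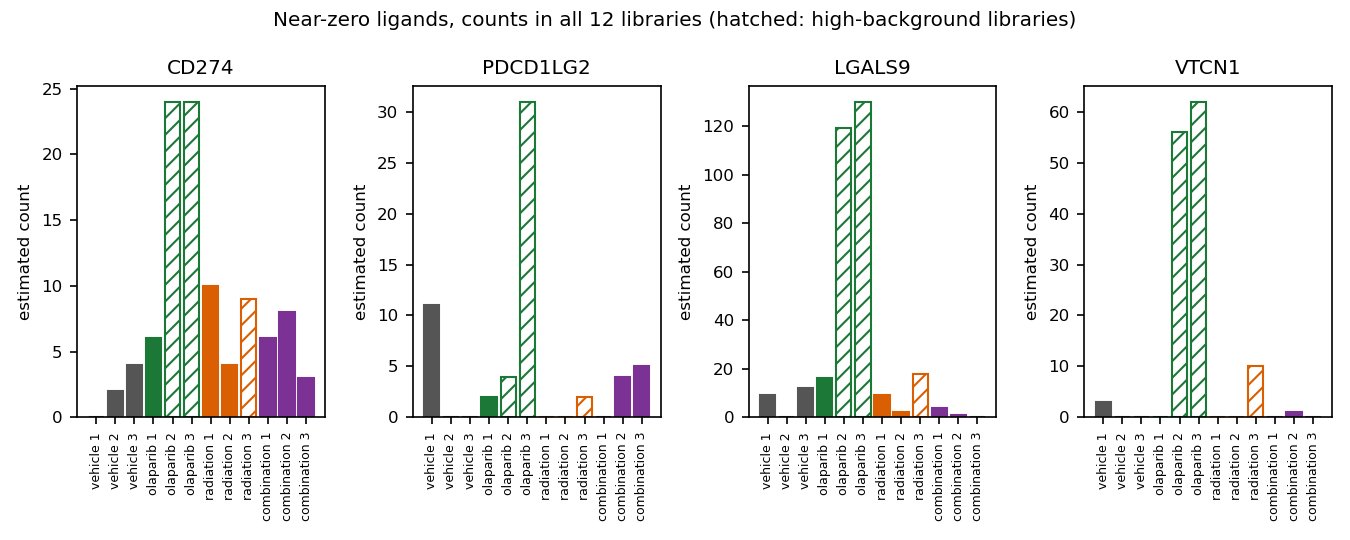
Estimated counts (y axes, each with its own scale) of the 4 near-zero ligands in all 12 libraries (x axes), colored by group, with the 3 high-background libraries hatched. In the other 9 libraries CD274 stays at 10 counts or fewer, while LGALS9 reaches 119 and 130 and VTCN1 56 and 62 in olaparib 2 and 3.

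The libraries set apart held most of the counts of the near-zero members. CD274 had 24 and 24 counts in olaparib 2 and 3 and 9 in radiation 3. PDCD1LG2 had 4, 31 and 2 counts in the same libraries. VTCN1 had 56, 62 and 10, and LGALS9 had 119, 130 and 18. On a common scale for 12 libraries, CD274, VTCN1 and LGALS9 were above the range of the other 9 libraries in all 3. The well expressed members went the other way or stayed within range. CD276 was 21.2, 18.1 and 26.2 CPM in olaparib 2, olaparib 3 and radiation 3, below the 27.9 to 45.3 CPM of the other 9. PVR was 11.2, 11.9 and 14.8 CPM against 16.2 to 23.6 CPM. CD70 was 7.2 and 7.45 CPM in the olaparib libraries, below the 9.13 to 16.7 CPM of the other 9, and 12 CPM in radiation 3. TNFSF9 and NECTIN2 were each below the other 9 in 2 of the 3 libraries. CD47 was 72.9 to 77.0 CPM, inside the range of 49.9 to 98.2 CPM. In the same libraries the summed leukocyte markers were 42.7, 43.4 and 21.9 CPM on that scale, against 4.08 to 8.55 CPM in the other 9. The share of all genes outside the range of the other 9 libraries was not computed. These positions, above or below, are therefore not read as particular to the ligands. The part of the background in the levels of the near-zero members was not tested.

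Among the well expressed members, levels were compared between genes per kilobase, with the median length of each gene's coding transcripts in GENCODE 29. In vehicle, CD47 stood first with 22.2 ± 4.98 CPM per kilobase (SD, n = 3). CD70 followed with 16.4 ± 0.669 and CD276 with 15.0 ± 0.513 CPM per kilobase. TNFSF9 with 5.85 ± 0.561 and PVR with 5.67 ± 0.524 overlapped, and NECTIN2 was lowest with 3.22 ± 1.0 CPM per kilobase. The order of the first 3 depends on the length used. With the longest transcript, CD70 had the highest mean with 16.1, before CD47 with 13.8 ± 3.11 and CD276 with 11.7 CPM per kilobase. By that length CD47 ran from 11.3 to 17.3 CPM per kilobase and overlapped with both CD70 and CD276. In the combination, the per-kilobase means were 15.4 for CD47, 11 for CD276, 10.8 for CD70, 6.22 for PVR, 4.09 for TNFSF9 and 3.13 for NECTIN2. CD276 and CD70 overlapped there, as did TNFSF9 and NECTIN2, while PVR stood above TNFSF9 in every combination library.

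**Figure D2:**
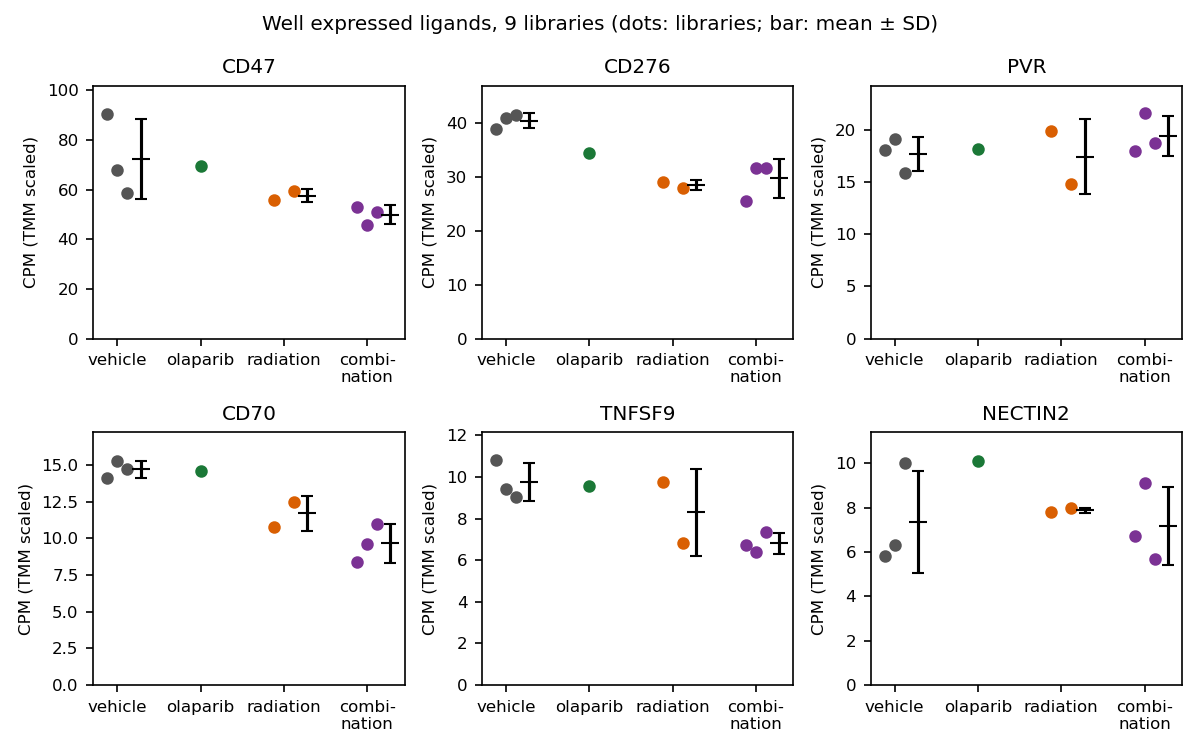
Scaled CPM (y axes, from 0) of the 6 well expressed ligands in the 9 libraries, by group, with the mean and SD beside groups of more than 1 library. CD276, CD70, CD47 and TNFSF9 lie lower in every combination library than in every vehicle library, while PVR and NECTIN2 overlap.

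In the combination against vehicle, 3 of the 9 members tested fell and none rose: CD276, CD47 and CD70 were lower by 26.6 to 34.3%. The percentage of all 30967 genes tested that was called lower was 3.26%, and 4.8% were called in either direction (adjusted p under 0.05). Among genes of at least 1 CPM, 5.53% were called lower. As these are bulk samples of a single line, fewer cells expressing a gene and less of its RNA per cell cannot be told apart. Library totals also differed, with 27007693 to 34103877 counts in vehicle and 19441478 to 20566024 in the combination, and the part of depth in these differences was not tested. Of 12 markers of endothelium and fibroblasts, 0 were called higher and 1 lower, the receptor gene PDGFRA, which also had the highest level. On the 12-library scale the 12 summed to 123 to 129 CPM in vehicle and 89 to 95.2 CPM in the combination. PDGFRA made up most of each sum. On the 9-library scale it was at 91.4, 96.3 and 92.6 CPM in vehicle and 63.8, 65.5 and 67.4 CPM in the combination. COL1A1, the next highest, overlapped, with 13.7 to 15.5 CPM in vehicle and 11.7 to 16.1 CPM in the combination. Leukocyte markers summed to 4.96 to 6.99 CPM in vehicle and 6.8 to 8.55 CPM in the combination on the 12-library scale. The labels name no endothelial cells, fibroblasts or leukocytes, and the part of either sum in the ligands' changes was not tested.

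CD276, a B7 family protein found on many solid tumors, was at 38.9, 41.0 and 41.5 CPM in the vehicle libraries and at 25.6, 31.7 and 31.7 CPM in the combination. The groups were well apart, and olaparib 1, at 34.5 CPM, lay between them. The log2 change was -0.45 (SE 0.109, 95% interval -0.66 to -0.23, adjusted p = 0.00455). CD47 was at 90.3, 67.8 and 58.8 CPM in vehicle and 53.0, 45.8 and 51.1 CPM in the combination. Vehicle 1 was far above the other vehicle libraries, and the lowest vehicle library was still above every combination library. Its log2 change was -0.53 (SE 0.119, interval -0.78 to -0.28, adjusted p = 0.00841), and without vehicle 1 it was -0.34 with an adjusted p of 0.0433. CD70, the ligand of CD27, was at 14.1, 15.3 and 14.7 CPM in vehicle and 8.38, 9.59 and 11 CPM in the combination. Its log2 change was the largest of the 3 at -0.61 (SE 0.171, interval -0.95 to -0.26, adjusted p = 0.0204).

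TNFSF9, which costimulates T cells through TNFRSF9, was at 10.8, 9.4 and 9.03 CPM in vehicle and 6.72, 6.37 and 7.36 CPM in the combination. Every combination library was below every vehicle library, as also held for CD276, CD47 and CD70 and for 10.4% of all genes tested. TNFSF9 did not pass the test (log2 change -0.51, SE 0.208, interval -0.93 to -0.1, adjusted p = 0.18). PVR, which reaches TIGIT and CD226 alike, was at 18.1, 19.1 and 15.9 CPM in vehicle and 18.0, 21.6 and 18.7 CPM in the combination. The groups overlapped, and the log2 change of 0.13 had an interval of -0.16 to 0.43 (adjusted p = 0.815). NECTIN2, the weaker TIGIT ligand and a ligand of PVRIG, was at 5.8, 6.3 and 9.99 CPM in vehicle and 6.72, 9.1 and 5.7 CPM in the combination. Its log2 change of -0.04 had an interval of -0.49 to 0.41 (adjusted p = 0.981), which holds a fall of the size seen in CD276 but not those of CD47 and CD70. The estimates for PVR, NECTIN2 and CD70 carry a limit, since each overlaps a gene on the opposite strand and the strand setting of the counting is not given in the sources used here.

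The calls depended on the fit. In all 12 libraries the vehicle and combination libraries and the log2 changes of CD276, CD47 and CD70 were the same, but the spread shared with the other groups was larger (SE 0.241 for CD276) and 0 members were called, with 0.00314% of all genes called. With the background level as a covariate in the 12 libraries, CD47 alone was called (adjusted p = 0.00815). In a fit of the 6 vehicle and combination libraries by themselves, CD276 and CD70 were called (adjusted p = 0.0103 and 0.0278) and CD47 was not (0.0588). Scaling by library size alone moved the median log2 change of all genes from 0.016 to 0.216 and the split of called genes from 475 higher and 1010 lower to 2275 higher and 319 lower. Under that scaling 0 members were called and 1.03% of all genes were called lower, with log2 changes of -0.24 for CD276, -0.34 for CD47, -0.4 for CD70 and -0.31 for TNFSF9. Relative to the median gene, the changes were -0.46, -0.55, -0.62 and -0.53 under both scalings. A change of scaling moves all genes alike, so this sameness follows from the arithmetic and is no separate support. CD276 lost its call without combination 1 (adjusted p = 0.0943). CD47 lost it without radiation 2, combination 2 or combination 3 (0.0587 to 0.0719), and CD70 without vehicle 2, vehicle 3, combination 1 or combination 2 (0.0528 to 0.143). The plot of the change by setting shows that the direction held throughout.

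**Figure D3:**
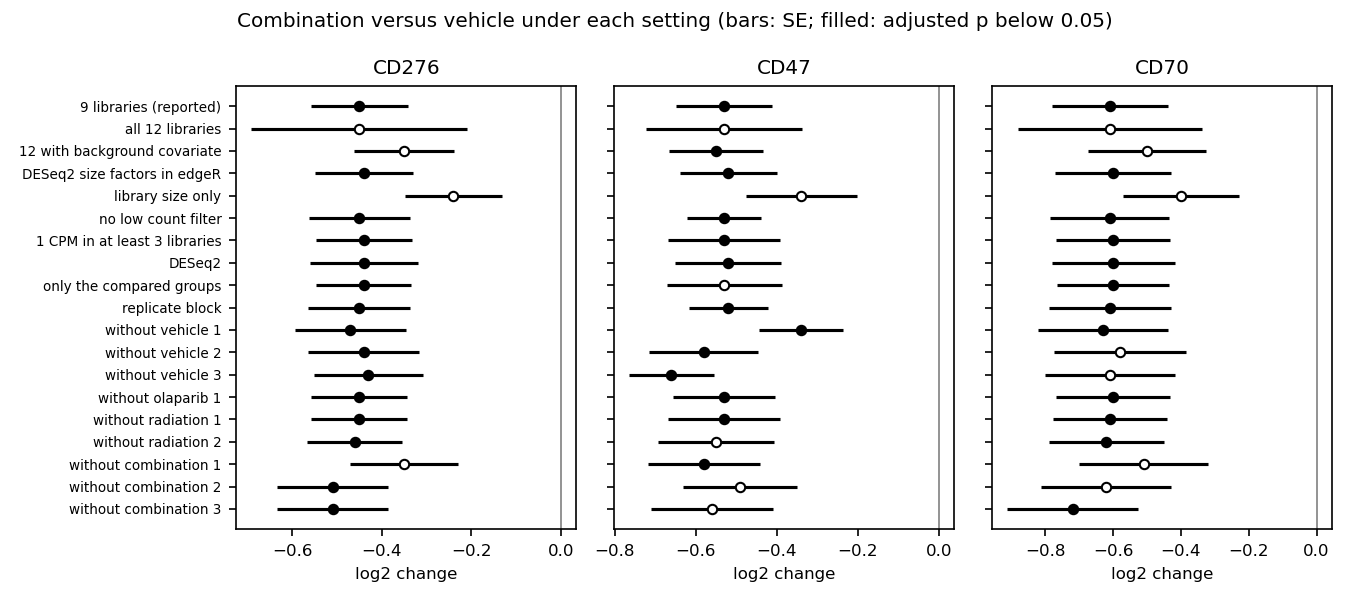
Log2 change in combination versus vehicle (x axes) of the 3 called ligands under each setting (y axis), with bars for the SE and filled points where the adjusted p is below 0.05. CD276 ranges from -0.51 to -0.24, CD47 from -0.66 to -0.34 and CD70 from -0.72 to -0.4, all below 0, and open points mark the settings that end a call.

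Radiation by itself was followed by a lower level of 1 member of 9. CD276 was at 29.1 and 27.9 CPM in radiation 1 and 2, below every vehicle library. Its log2 change was -0.51 (SE 0.122, interval -0.75 to -0.26, adjusted p = 0.0141), where 0.678% of all genes tested were called lower and 1.1% in either direction. The radiation and combination changes share the vehicle libraries, so they are not independent. The CD276 call was lost without vehicle 2 (adjusted p = 0.0701), radiation 1 (0.0974) or radiation 2 (0.158), in all 12 libraries (0.934, with 0% of genes called), with the background covariate (0.0891) and with library size alone (0.0661, with 0.404% of genes called lower). CD70 was at 10.8 and 12.5 CPM, also below every vehicle library, as were 13.5% of genes tested, and its log2 change of -0.33 (interval -0.71 to 0.05) gave an adjusted p of 0.607. CD47 was at 55.8 and 59.5 CPM, overlapping with vehicle, with a log2 change of -0.33 (interval -0.6 to -0.05, adjusted p = 0.397). It was called without vehicle 3 (adjusted p = 0.0239). TNFSF9 was at 9.77 and 6.82 CPM (log2 change -0.23, adjusted p = 0.847), PVR at 19.9 and 14.8 CPM (-0.03, 0.989) and NECTIN2 at 7.8 and 7.96 CPM (0.1, 0.964). For TNFSF9, 1 of these libraries lay inside the vehicle range and 1 below it. For PVR, 1 lay above it and 1 below, and both NECTIN2 libraries lay inside.

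Olaparib by itself rests on 1 library. Olaparib 1 had 69.5 CPM of CD47, 18.2 of PVR, 14.6 of CD70 and 9.54 of TNFSF9, all within the range of the vehicle libraries. CD276 was at 34.5 CPM, where the vehicle libraries had 38.9 to 41.5 CPM, and NECTIN2 at 10.1 CPM, where they had 5.8 to 9.99 CPM. The share of all genes with olaparib 1 outside the vehicle range was not computed, so neither position is read as a change. No member was called by edgeR, 0 had an unadjusted p under 0.05, and DESeq2 called 0, where edgeR called 0.0678% of all genes tested. The intervals of the log2 change were wide, for example -0.53 to 0.08 for CD276 and -0.15 to 1.05 for NECTIN2. With olaparib 2 and 3 included, 0 members and 0% of all genes were called. In that fit 9369 of 31858 genes had an unadjusted p under 0.05, among them 5 members. CD276 and CD70 were lower, with log2 changes of -0.78 (adjusted p = 0.131) and -0.65 (0.151). Higher were 3 near-zero members, CD274 by 3.27, LGALS9 by 3.74 and VTCN1 by 5.18 on the log2 scale. With the background covariate, these changes were -0.29 for CD276, -0.16 for CD70, 1.5 for CD274, 0.81 for LGALS9 and -5.11 for VTCN1. VTCN1 had too few counts to be tested in the 9 libraries and entered this fit with 56 and 62 in olaparib 2 and 3. Fitted changes of genes this low depend on the prior count.

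Whether olaparib changed the ligands on top of radiation was asked by setting the combination against radiation. No member was called by edgeR, 0 had an unadjusted p under 0.05, and DESeq2 called 0, where edgeR called 0.568% of genes tested. CD276 differed least, with a log2 difference of 0.06 (interval -0.19 to 0.3). CD47 was lower in every combination library than in radiation 1 and 2, as were 11.9% of genes tested, with a difference of -0.21 (interval -0.48 to 0.07, adjusted p = 0.676). The differences were -0.27 for CD70 (interval -0.65 to 0.11), -0.28 for TNFSF9 (-0.75 to 0.18), 0.16 for PVR (-0.17 to 0.49) and -0.13 for NECTIN2 (-0.63 to 0.36). A departure from additive effects of olaparib and radiation, the interaction, was called for 0 members by edgeR and by DESeq2, with 0 at an unadjusted p under 0.05, adjusted p-values of 0.811 to 0.99, and 0.2% of genes called.

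**Figure D4:**
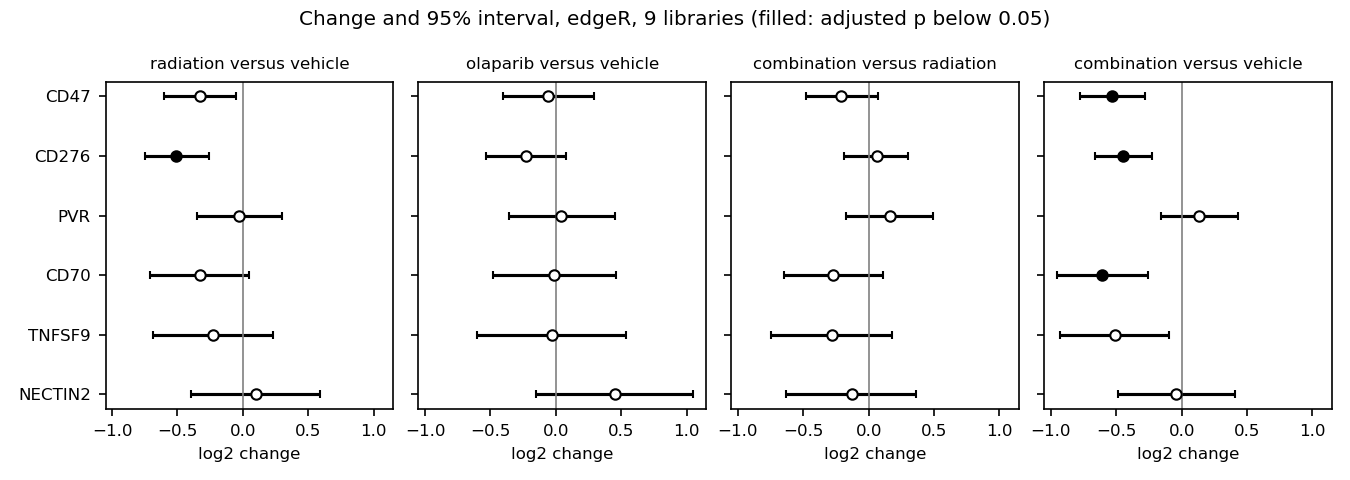
Log2 change (x axes) of the 6 well expressed ligands (y axis) in 4 comparisons of the 9 libraries, with 95% intervals and filled points for an adjusted p below 0.05. CD276 is called after radiation and in the combination, CD47 and CD70 in the combination, and no ligand is called for olaparib against vehicle or the combination against radiation.

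Over the 9 libraries CD276, CD47, CD70 and TNFSF9 varied together. Pearson correlations of log2(CPM + 0.5) between them ran from 0.55 for CD276 and CD47 to 0.82 for CD276 and CD70. Correlations of PVR and NECTIN2 with the other members and with each other ran from -0.37 to 0.13. The points are the same 9 libraries, which share treatment groups and depth, so these values are a description. Among 18018 genes of at least 1 CPM, those most like CD276 were the Wnt antagonist DKK1 (r = 0.969), PBX2 (0.969) and TTC28 (0.953). CD70 was matched most closely by the RNA helicase DDX17 (0.98), GTF2I (0.971) and the mitochondrial tRNA MT-TP (0.968). For CD47 the closest were SINHCAFP3 (0.969), BTBD9 (0.963) and DPPA4 (0.953), and for TNFSF9 the adhesion receptor ADGRL3 (0.964), SC5D (0.961) and ALCAM (0.954). NECTIN2 was followed by the nonclassical HLA gene HLA-E (0.959), NUP93 (0.945) and LINC01783 (0.942), and PVR by PHF23 (0.92), TTL (0.917) and MKRN5P (0.914).

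Of 46 other ligands and surface enzymes of tumor cells, 37 were tested in the combination against vehicle, 1 rose and 2 fell, with a median log2 change of -0.24 beside 0.016 for all genes, of which 4.8% were called. CD24, a ligand of the macrophage receptor SIGLEC10, was at 1.72, 0.697 and 0.928 CPM in vehicle, 4.2 and 2.9 CPM in radiation 1 and 2, and 4.53, 4.53 and 2.85 CPM in the combination. It rose in the combination (log2 change 1.84, SE 0.391, adjusted p = 0.00079) and after radiation (1.68, SE 0.419, adjusted p = 0.0195). Every irradiated library of the 9, with or without olaparib, was above every vehicle library, at a level of a few CPM. Of all genes tested, 9.15% were higher without overlap in the combination and 11.7% after radiation. In all 12 libraries neither CD24 call held (adjusted p = 0.772 and 0.934). The call after radiation was also lost without vehicle 2, vehicle 3 or radiation 1 (0.0944 to 0.333), with the background covariate (0.0674) and in the compared groups alone (0.107). BTN3A1, a butyrophilin that activates gamma delta T cells, fell from 26.2, 25.1 and 24.5 CPM in vehicle to 16.0, 16.7 and 16.3 CPM (log2 change -0.63, SE 0.133, adjusted p = 0.000701). It was called lower with library size alone as well (-0.43, adjusted p = 0.0267). In all 12 libraries no gene of this list or of the PD-L1 control list was called. HMGB1, a chromatin protein that binds HAVCR2 when released, fell from 280, 292 and 274 CPM to 215, 235 and 223 CPM (log2 change -0.33, SE 0.0692, adjusted p = 0.000741), and it was not called with library size alone (-0.13, 0.296) or with the background covariate (0.18). Reads of BTN3A1, HMGB1 and CD24 can be shared with related genes or pseudogenes.

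The genes that control PD-L1 were present although CD274 was nearly absent: 32 of 33 listed genes were at 1 CPM or more. JAK2 averaged 26.3 CPM and IRF1 4.12 CPM over the 9 libraries, with log2 changes in the combination of 0.02 and -0.14 (adjusted p = 0.982 and 0.935). CMTM6, which protects PD-L1 from degradation, had a log2 change of -0.39 (SE 0.123, adjusted p = 0.0506). Of the 32 tested, 0 rose and 2 fell, with a median of -0.12 beside 0.016 for all genes. The share that fell is close to the 5.53% called lower among all genes of at least 1 CPM. COPS5, a deubiquitinase subunit that stabilizes PD-L1, fell from 47.3, 43.7 and 39.1 CPM in vehicle to 31.3, 31.4 and 34.7 CPM (log2 change -0.42, SE 0.103, adjusted p = 0.00565). MYC, a transcription factor reported to act on CD274 and CD47, fell from 24.2, 20.3 and 25.1 CPM to 17.5, 17.1 and 14.8 CPM (log2 change -0.49, SE 0.139, adjusted p = 0.02). COPS5 lost its call without vehicle 1 (adjusted p = 0.0775), and MYC without vehicle 1, vehicle 3 or combination 3 (0.0932 to 0.128). With the background covariate in 12 libraries neither was called (0.114 for COPS5 and 0.173 for MYC). With library size alone, which raised the median of all genes to 0.216, the list had 5 genes called higher, 0 lower and a median of 0.08. Neither COPS5 nor MYC was called under that scaling. Of 10 enzymes and transcription factors that act on CD47, CD70 or related ligands, MYC was the 1 called lower, none was called higher, and the median was 0.03 beside 0.016 for all genes. With library size alone 2 were called higher and 0 lower, with a median of 0.23 beside 0.216 for all genes. After radiation, 0 of the 32 PD-L1 control genes were called by edgeR and by DESeq2. Of these 32, 6 and 5 had an unadjusted p under 0.05. Of all 30967 genes, 2997 and 2761 had one, which is a smaller share, and the difference was not tested.

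Of a list of 19 receptors and binding partners of members and other ligands, 4 averaged 1 CPM or more. These included SIRPA (5.39 CPM), the CD47 receptor, and THBS1 (3.59 CPM), a secreted CD47 ligand. The others were TNFRSF9 (2.98 CPM), which binds TNFSF9, and PVRIG (2.16 CPM), which binds NECTIN2. PDCD1, the gene of PD-1, and ICOS were 0 in all 9 libraries. In the combination against vehicle, 14 were tested and 0 were called by edgeR or by DESeq2, with 1 at an unadjusted p under 0.05 by each. SIRPA was at 6.04, 7.79 and 7.62 CPM in vehicle and 3.8, 5.25 and 5.65 CPM in the combination. Every combination library was below every vehicle library, as held for 10.4% of all genes tested. The log2 change of SIRPA was -0.55 (SE 0.256, adjusted p = 0.293).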

How the data were processed

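RNA of 12 SBC5 libraries was sequenced as stranded total RNA, per the labels' protocols. Reads were quantified with kallisto 0.46.1 and analysed with DESeq2, per the submitters' processing notes. For the genome build, transcriptome release and strand setting, the sources used here name none. The deposited values are expected counts (estimated counts) per Ensembl gene, 60649 rows, not normalized. From these, the 44 rows of the Y copies of pseudoautosomal genes were merged into the X copies, leaving 60605 genes (60463 with a symbol), and counts were rounded.

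The main fit used 9 libraries in edgeR 4.0.16 (R 4.3.3), with its default low count filter, TMM scaling, robust quasi-likelihood tests and a threshold of 0.05 on p-values adjusted over all genes by Benjamini and Hochberg. CPM are TMM scaled. Libraries compared with the 3 set apart were scaled over all 12. Intervals are 95% and use the fit's degrees of freedom. The script was tested on simulated data. Depth was 14300459 to 38804959 counts, and floors cover counting error only. Alternatives were all 12 libraries, the same with an olfactory receptor covariate, DESeq2 size factors, library size only, no filter, a filter at 1 CPM (3 or more libraries), DESeq2 1.42.0, the compared groups only, a replicate block and each library left out.

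The members and gene lists were chosen with earlier results of these data known. The rule for naming genes was all members, genes of the other ligand, PD-L1 control and enzyme lists called in the combination against vehicle, receptors at 1 CPM or more, and the 3 genes best correlated with each well expressed member. JAK2, IRF1, CMTM6 and the marker genes were named after their values were seen. Promoters are from RefSeq (GRCh38.p14) and lengths from GENCODE 29.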

Additional observations from a re-analysis of the deposited data

Results flagged for a closer look

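Signals of members near zero appeared in the 3 libraries outside the main fit, above the range of the 9 others on a scale common to all 12. CD274 was at 0.993 CPM in olaparib 2, 1.02 CPM in olaparib 3 and 0.582 CPM in radiation 3, where the vehicle libraries reached at most 0.14 CPM. VTCN1 was at 2.32, 2.62 and 0.647 CPM in the same libraries, against at most 0.128 CPM in vehicle. LGALS9 was at 4.93, 5.5 and 1.16 CPM, against at most 0.419 CPM. PDCD1LG2 was at 1.31 CPM in olaparib 3, against at most 0.469 CPM. The same libraries had the high olfactory receptor sums given above, and the part of that background was not tested. How many of all genes lie above the 9 others in these libraries was not computed, so the values are not read as particular to these members.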

How the results depend on the processing

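Of 440 log2 changes recomputed under alternatives (the 6 well expressed members in 4 comparisons, and CD274 in the combination against vehicle), 390 kept their direction and their side of the threshold, 23 lost a call, 1 gained a call and 26 reversed. The number of members called in the combination against vehicle was 3, and it was 0 in all 12 libraries, 1 with the background covariate, 0 with library size only and 1 to 3 with a library left out (1 without combination 1 or combination 2). After radiation it was 1, and it was 0 in all 12 libraries, 0 with the background covariate, 0 with library size only and 0 to 2 with a library left out (0 without vehicle 2, radiation 1 or radiation 2, and 2 without vehicle 3). It was 0 in the other comparisons under every alternative. Deviations from group means correlated at -0.098 to 0.021 between same-numbered libraries and at -0.098 to 0.126 between differently numbered ones. The deviations of radiation 1 and 2 mirror each other, so these few values cannot show whether replicate numbers mark pairs. With the replicate block 3 members were called in the combination and 1 after radiation, and 0 in the other comparisons. With the block CD24 was no longer called after radiation (adjusted p = 0.0616). DESeq2 gave CD24 no adjusted p.

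The reversals were in changes that had not passed the test. NECTIN2 in the combination was 0.08 with the background covariate, 0.17 with library size only and -0.26 to 0.25 with a library left out. After radiation, PVR was 0.00 with the covariate, 0.08 with library size only and -0.26 to 0.18 with a library left out, NECTIN2 was -0.05 to 0.38 and TNFSF9 -0.51 to 0.02 with a library left out. For olaparib, PVR was -0.43 and NECTIN2 -0.12 in all 12 libraries, CD47 was 0.01, CD70 0.06 and TNFSF9 0.04 with library size only, and PVR was -0.02 and CD70 0.13 with the replicate block. With a library left out, olaparib changes were -0.19 to 0.14 for CD47, -0.03 to 0.1 for PVR, -0.04 to 0.02 for CD70 and -0.08 to 0.05 for TNFSF9. Between the combination and radiation they were -0.01 to 0.15 for CD276 and -0.06 to 0.39 for PVR. The cause was not tested.

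Genes called in the combination against vehicle numbered 1485, and 1 in all 12 libraries, 829 with the covariate (455 higher, 374 lower) and 2594 with library size only. After radiation they numbered 340 (130 higher, 210 lower), and 0, 194 (122 higher, 72 lower) and 685 (560 higher, 125 lower) under the same settings, 190 in the compared groups only and 200 without vehicle 2. For olaparib they numbered 21, and 0 in all 12 libraries, 10 with the covariate, 39 with no filter, 39 with DESeq2, 37 in the compared groups only, 43 with the block and 18 to 33 with a library left out. Between the combination and radiation they numbered 176 (44 higher, 132 lower), and 0, 28, 278, 412, 64, 214 and 38 to 447 in that order, with 142 higher and 58 lower by library size only. For the interaction they numbered 62, and 0 in all 12 libraries, 0 with the covariate, 130 with no filter, 169 with DESeq2, 103 with the block and 29 to 194 with a library left out. Group levels were recomputed with library size only and over all 12 libraries, which also adds the libraries set apart to the olaparib and radiation means. Of 80 levels recomputed in these ways, 58 moved by less than the spread and 22 by more. With 1 olaparib library in the main fit, the spread for that group is not one between libraries. Depth limits the near-zero members most: 3 counts are 0.0788 to 0.146 CPM.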
